A study of Danio rerio with 4 samples.

Results

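DNA methylation of whole zebrafish embryos at 24 hpf (hours post fertilization, organogenesis) was compared with that at 4 hpf (blastula) in 1 kb windows of the 25 nuclear chromosomes. A window was compared when each of the libraries had reads on at least 6 of its CpGs and at least 40 reads summed over them, which held for 1130598 of the 1354664 windows with a CpG (83.5%). The level of a window was the percentage of methylated reads among all its reads, and a window was called higher or lower when the 24 hpf level differed from the 4 hpf level by 25 points or more. The series holds 4 whole-genome bisulfite libraries, 1 each at 2 hpf (cleavage), 4 hpf, 8 hpf (gastrula) and 24 hpf, all from whole embryos. The 2 and 8 hpf libraries were used to find the step in which most of each difference lay. The sources used here give neither the strain nor the number of embryos per library. With 1 library per stage there is no replicate, so no difference between stages could be tested against the spread between libraries of a stage. All comparisons are between these libraries. A whole embryo mixes cell types, so partial methylation in all cells cannot be told apart from full methylation in some of them.

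In vertebrates most methylated cytosines stand before a guanine, in CpG dinucleotides. Dnmt1 copies the methylation pattern after each replication, Dnmt3 enzymes add methyl groups to unmethylated sites, and Tet enzymes oxidise 5-methylcytosine, which starts its removal. Zebrafish embryos keep most of their genome methylated from the first divisions on, while CpG-rich promoters and long valleys around genes of developmental regulators stay unmethylated, and loss of methylation at enhancers through Tet enzymes has been described during organogenesis in zebrafish.

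Mean coverage per CpG was 28.6 reads at 2, 20.9 at 4, 8.04 at 8 and 12.3 at 24 hpf, so that levels at 8 and 24 hpf are the least precise. All intervals are 95% intervals of the reads or windows counted and cover counting error only. Since 1 read can cover several CpGs and is then counted more than once, the intervals on reads are too narrow.

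Most of the genome differed little between the stages. The difference, 24 hpf minus 4 hpf, had a median of -2.53 points over all windows, with the 5th and 95th percentiles at -11.4 and 6.08 points. It was under 10 points in 1019666 windows (90.2%) and between 10 and 25 points in 100938 (8.93%). The median window stood at 89.3% at 24 hpf, against 92.4% at 4 hpf.

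By pooled reads, 6187 windows were higher at 24 hpf, which is 0.547% of the windows compared, and 3807 were lower, which is 0.337%. Together they made 9994 windows (0.884%). The Newcombe interval of the difference lay away from 0 in all of them, which largely follows from the choice by 25 points and at least 40 reads. It lay wholly beyond 25 points in 2338 higher windows (0.207%) and 754 lower windows (0.0667%). Differences close to the threshold were common, since 582 windows were higher by 25 to 26 points and 641 by 24 to 25 points, and 625 were lower by 25 to 26 points and 663 by 24 to 25 points. With the median difference subtracted from every window, 7923 windows were higher and 2472 were lower. Switches between nearly unmethylated and nearly fully methylated were rare. Only 41 windows (0.00363%) were over 75% at 24 hpf and under 25% at 4 hpf, and 14 (0.00124%) were under 25% at 24 hpf and over 75% at 4 hpf.

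**Figure D1:**
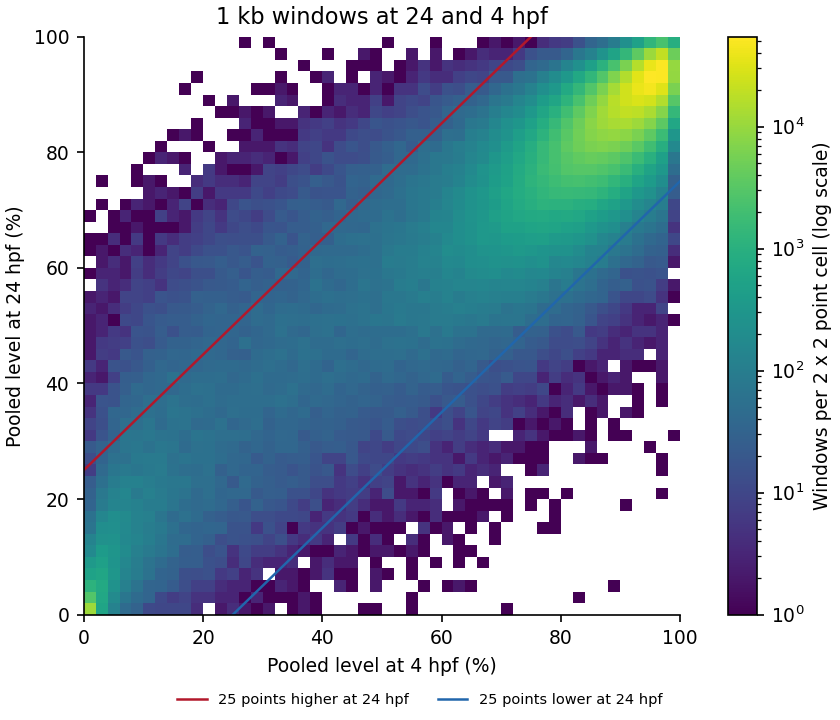
Number of 1 kb windows (colour, log scale) by their pooled methylation level at 24 hpf (y axis, %) and at 4 hpf (x axis, %), in cells of 2 by 2 points. Nearly all of the 1130598 windows lie between the lines of 25 points, with 6187 on or above the upper line and 3807 on or below the lower one.

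The higher windows held more CpGs than the median window and began at low to intermediate levels, and the lower windows held fewer CpGs and mostly began over 75%, though less so than windows in general. The median higher window held 22 CpGs and the median lower window 13, against 16 over all windows. Higher windows had a median of 61.5% at 24 hpf, against 25.4% at 4 hpf, and 3029 of them (49.0%) began under 25%, which held for 3.26% of all windows. Lower windows had a median of 54.1% at 24 hpf, against 84.9% at 4 hpf, and 2774 of them (72.9%) began over 75%, which held for 91.4% of all windows. Most windows of both kinds ended at an intermediate level. At 24 hpf 4687 higher windows (75.8%) and 3466 lower windows (91.0%) lay between 25 and 75%, against 8.30% of all windows. By the rule of 25 points a higher window cannot begin over 75% or end under 25%. A lower window cannot begin under 25% or end over 75%. The contrasts with all windows in levels thus follow in part from the choice.

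A pooled level can differ because CpGs changed or because reads fell on other CpGs of the window. Each called window was therefore read again as the mean change of those CpGs that had at least 5 reads in both libraries, where there were at least 6 of them. This reading, chosen after the pooled values were seen, was possible in 4851 higher windows and not in the other 1336. Over the same CpGs 1651 of the 4851 (34.0%) were higher by 25 points or more and 1096 (22.6%) by 10 to 25 points. The remaining 2104 (43.4%) differed by less than 10 points or in the other direction, with 781 (16.1%) in the other direction. The median change of the 4851 windows was 31.2 points by pooled reads and 15.4 points over the same CpGs.

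Of the lower windows, 2614 could be read over the same CpGs and 1193 could not. In 1074 of them (41.1%) the same CpGs were lower by 25 points or more, in 947 (36.2%) by 10 to 25 points, and in 593 (22.7%) by less than 10 points or in the other direction. Their median change was -28.9 points by pooled reads and -22.2 points over the same CpGs. The 1651 and 1074 windows that differed by both measures are 0.157% and 0.102% of the 1050882 windows that could be read in this way. When the same CpGs alone decided, 2020 windows were higher and 1738 were lower.

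**Figure D2:**
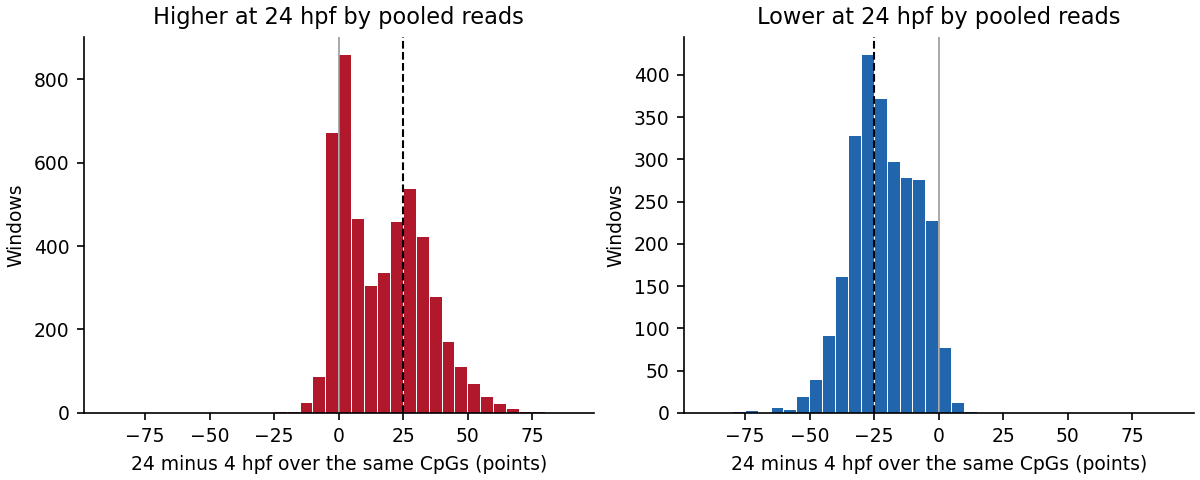
Windows called higher (left, n = 4851) and lower (right, n = 2614) at 24 hpf by pooled reads, by the mean difference between 24 and 4 hpf over the CpGs with at least 5 reads in both libraries (x axis, points, in bins of 5). The dashed lines stand at 25 points: 34.0% of the higher and 41.1% of the lower windows lie on or beyond them, and the higher windows have a second peak next to 0.

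Where the reads fell within the called windows is described by a ratio. CpGs were taken as low when under 25% and as high when over 75% at 4 hpf, and the mean coverage of the low ones was divided by that of the high ones. In all higher windows this ratio was 0.711 at 2, 1.49 at 4, 0.449 at 8 and 0.483 at 24 hpf, and in all lower windows it was 0.898 at 2, 0.591 at 4, 1.71 at 8 and 3.01 at 24 hpf. Over all windows compared it was 0.729, 0.857, 0.671 and 0.573 at these stages. The higher and lower windows were chosen by their pooled difference between 4 and 24 hpf, and the CpGs were sorted by their fraction at 4 hpf. In both kinds a shift of the ratio between 4 and 24 hpf thus follows in part from the choice. In the higher windows whose same CpGs changed by less than 10 points or in the other direction, it was 0.595 at 2, 1.44 at 4, 0.352 at 8 and 0.261 at 24 hpf. These windows were chosen by a pooled difference without one in their CpGs, so that a lower ratio at 24 than at 4 hpf follows from the choice and is given as a description. Among the higher windows whose same CpGs changed by 25 points or more, it was 1.28 at 2, 1.91 at 4, 0.791 at 8 and 1.26 at 24 hpf. The part of read placement in each call was not tested.

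The step that carried most of the difference depended on which of these measures was used. By pooled reads, 5644 higher windows had at least 6 covered CpGs and 40 reads in all 4 libraries, and the largest step was that between 4 and 8 hpf in 60.9% of them (59.6 to 62.2%, exact binomial interval) and that between 8 and 24 hpf in 39.1% (37.8 to 40.3%). Their median level was 39.8% at 2, 24.8% at 4, 47.3% at 8 and 60.5% at 24 hpf. In 500 bp windows the share for the last step was 55.0%, and in 2 kb windows 24.4%. Over the same CpGs, each read at least 5 times in every library, the step from 8 to 24 hpf was the largest in more windows than that from 4 to 8 hpf. This was so in 59.5% of the 3750 called higher windows that could be read in this way, against 37.7% for the step from 4 to 8 hpf. The direction here was that of each window's own same-CpG difference, which could be small or opposite to the call. Of the 4851 higher windows read over the same CpGs at 4 and 24 hpf, 781 (16.1%) went the other way. The 59.5% thus does not time a rise alone. Among the 1187 higher windows that changed by 25 points over the same CpGs and could be followed in all 4 libraries, the step from 8 to 24 hpf was the largest in 70.3% (67.6 to 72.9%) and that from 4 to 8 hpf in 29.7% (27.1 to 32.4%). Their median level was 36.0% at 2, 28.3% at 4, 37.0% at 8 and 63.7% at 24 hpf. With 3 reads in place of 5 and the same choice of windows, the share for the last step was 71.1% of 1459 windows.

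For the lower windows both measures put most of the difference after 8 hpf. By pooled reads the step from 8 to 24 hpf was the largest in 66.1% (64.4 to 67.7%) of 3183 windows, over the same CpGs in 77.4% of the 1968 called windows that could be read in this way, and in 88.0% (85.6 to 90.1%) of the 851 that also changed by 25 points over them. The median level of these 851 windows was 91.7% at 2, 93.1% at 4, 92.6% at 8 and 58.3% at 24 hpf. By 8 hpf the median window had covered 1.69% of its difference between 4 and 24 hpf, and 674 of the 851 (79.2%) had covered less than 25% of it.

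The 4 hpf library enters the choice of windows and both of the first steps. In the higher windows followed over the same CpGs, 460 of 1187 (38.8%) were lower at 4 hpf than at 2 hpf by 10 points or more, and 17 (1.43%) were higher by as much. Of the lower windows, 118 of 851 (13.9%) were higher at 4 than at 2 hpf by 10 points or more. Over all 941736 windows read in this way the median step from 2 to 4 hpf was -0.0134 points. The share of them that differed by 10 points is not given here. Higher windows were chosen by a low and lower windows by a high 4 hpf level, so these counts follow in part from the choice. The largest step was that from 2 to 4 hpf in 0 of the 1187 and 0 of the 851 windows. Since the windows were chosen by a large difference that arose after 4 hpf, a low count here follows largely from the choice. The count thus cannot show how often methylation changed between 2 and 4 hpf.

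**Figure D3:**
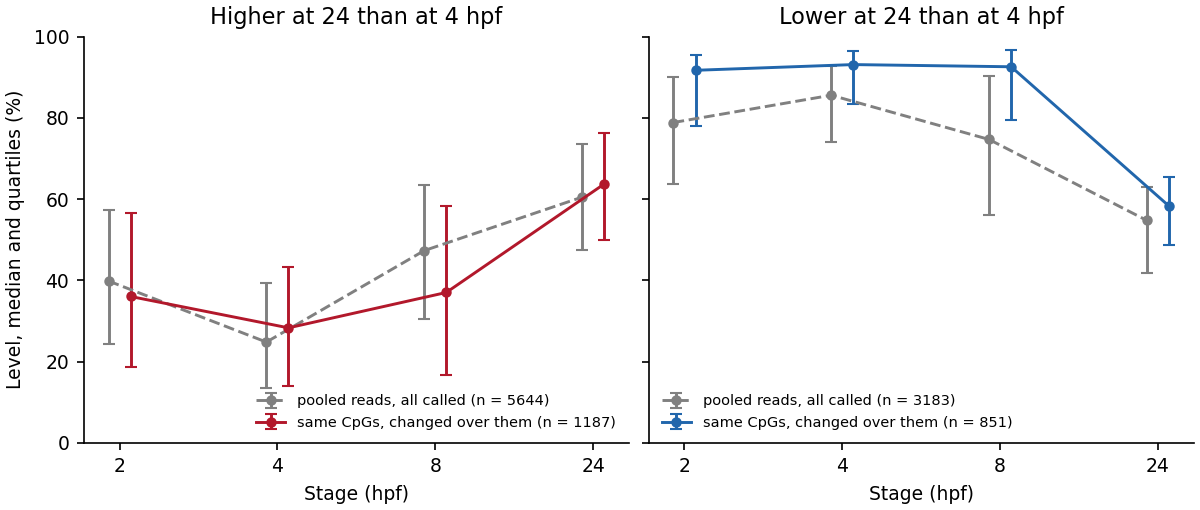
Methylation level (y axis, %, median with quartiles as bars) by stage (x axis, hpf) of windows higher (left) and lower (right) at 24 than at 4 hpf. Grey dashed lines show pooled reads over all called windows (n = 5644 and 3183), and coloured lines show the same CpGs in windows that changed by 25 points over them (n = 1187 and 851), where the 8 hpf medians were 37.0% and 92.6%.

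The largest step differed with the level at 4 hpf, which also enters the choice of windows and the step from 4 to 8 hpf. The 540 higher windows that began under 25% over the same CpGs had a median of 17.4% at 2, 12.7% at 4, 14.6% at 8 and 48.7% at 24 hpf, and the last step was the largest in 88.0% of them. Of the 468 that began between 25 and 50%, 59.6% had the largest step after 8 hpf, and of the 175 that began between 50 and 75%, 44.0% did. In the last of these groups the median was 70.2% at 2, 58.7% at 4, 73.0% at 8 and 85.8% at 24 hpf. Windows under 25% at 4 hpf thus mostly stayed low in the gastrula library, while part of the windows of intermediate level were already higher there, and also higher at 2 hpf, than at 4 hpf.

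Lower windows showed the same kind of order. Of the 524 that began over 90%, 97.5% had the largest step after 8 hpf, with medians of 94.9% at 2, 95.8% at 4, 96.1% at 8 and 63.7% at 24 hpf. The share was 83.0% of the 182 that began between 75 and 90%, 62.2% of the 111 between 50 and 75%, and 51.5% of the 33 between 25 and 50%. This share was thus largest in the windows that began over 90%. Since the 4 hpf level sets the groups, the choice of windows and the step from 4 to 8 hpf, these shares cannot show whether the timing itself differed.

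Within the 1651 and 1074 windows that differed over the same CpGs, most single CpGs moved in the direction of the window. In the higher windows 18574 of 27338 CpGs with 5 reads in both libraries (67.9%) were higher by 25 points or more, and 131 (0.479%) were lower by as much. In the lower windows 8629 of 13835 CpGs (62.4%) were lower by 25 points or more, and 32 (0.231%) were higher by as much. Over all 17126218 nuclear CpGs with such coverage, 1.91% were higher and 3.65% were lower by 25 points or more. The windows were chosen by these CpGs, so the shares describe how evenly a difference was spread. To read CpGs that took no part in the choice, windows were chosen on every other CpG and read on the rest, with at least 6 on each side. Of 636345 windows, 1264 (0.199%) were chosen as higher and 939 (0.148%) as lower. The higher ones had a median difference of 31.7 points on the first set and 30.3 points on the other, and 72.3% reached 25 points there. The lower ones had -29.2 and -26.2 points and 56.1% reached 25 points. With at least 3 on each side, 2332 of 1036641 windows (0.225%) were chosen as higher and 3033 (0.293%) as lower. The higher ones had 31.5 and 28.5 points, with 62.0% reaching 25 points, and the lower ones -29.1 and -18.5 points, with 33.8%. The share of all windows that reached 25 points on the other set is not given here. Both sets come from the same libraries and in part from the same reads, so their likeness does not test a difference between stages.

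The most common end point was again a partial one, in part through the same rule of 25 points. Of the 1651 higher windows 1176 (71.2%) lay between 25 and 75% at 24 hpf over the same CpGs and 475 (28.8%) above 75%, after 756 (45.8%) had been under 25% at 4 hpf. Of the 1074 lower windows 975 (90.8%) lay between 25 and 75% at 24 hpf and 99 (9.22%) under 25%, while 616 (57.4%) had been over 90% at 4 hpf. Of all windows read in this way 63.0% were over 90% and 3.06% under 25% at 4 hpf. A difference of 50 points or more was seen in 137 higher (8.30%) and 31 lower windows (2.89%).

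The shares of called windows differed with CpG density, more clearly for the higher ones. Of windows with 6 to 9 CpGs, 0.0312% were higher over the same CpGs, against 0.207% with 20 to 29, 0.536% with 30 to 49 and 0.475% with 50 or more CpGs. The lower windows ran the other way, at 0.120% of windows with 6 to 9 CpGs, 0.104% with 20 to 29, 0.0532% with 30 to 49 and 0.00833% with 50 or more. The last share is only 2 of 24010 windows. Depth moved with the calls as well. Among windows with 40 to 79 reads at 24 hpf, 0.377% were lower over the same CpGs, against 0.0414% of those with 640 or more, while for higher windows the shares were 0.239% and 0.164%. The level at 4 hpf enters too, since a window over 75% by pooled reads cannot be called higher and one under 25% cannot be called lower. Of windows at 0 to 10% at 4 hpf, 1.27% were higher over the same CpGs, against 6.19% at 25 to 50% and 0.532% at 50 to 75%. The parts of depth and of the 4 hpf level in these shares were not tested.

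The surroundings of the windows also differed. Mean methylation of CpGs read 5 times or more in every library was traced in bins of 200 bp up to 10 kb from the window centre. The higher windows sat in a trough at every stage, which reached 35.1% at 2, 26.4% at 4, 36.3% at 8 and 61.0% at 24 hpf just beyond the centre, against 87.3, 86.9, 87.7 and 85.2% at the outer end. The trough was present before and after, and shallower at 24 hpf. The lower windows sat in evenly methylated sequence, with 82.6% at 2, 86.6% at 4, 82.2% at 8 and 52.2% at 24 hpf near the centre and 87.4, 87.3, 87.5 and 84.6% at the outer end. A narrow trough was thus seen at 24 hpf where the earlier libraries had little or none. Windows of both kinds were chosen by the difference of their own CpGs between 4 and 24 hpf. The 4 and 24 hpf values inside the window thus follow in part from that choice.

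**Figure D4:**
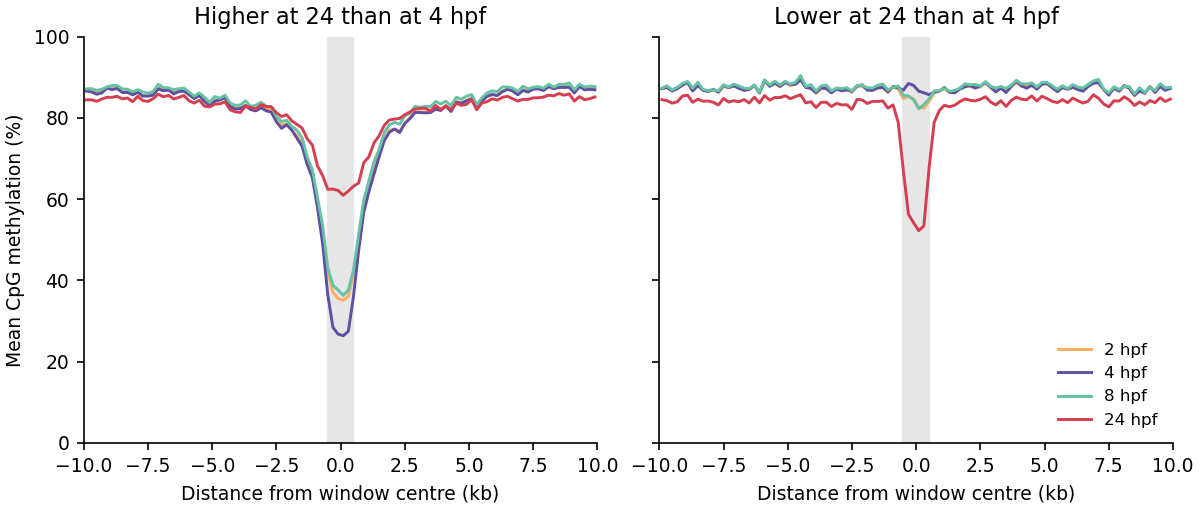
Mean methylation (y axis, %) of CpGs read 5 times or more in every library, in bins of 200 bp by distance from the window centre (x axis, kb), around the 1651 windows higher (left) and the 1074 lower (right) at 24 than at 4 hpf over the same CpGs; lines are stages and the grey band is the window. Near the centre the 24 hpf line lies at 61.0% on the left and 52.2% on the right, and at the right-hand end all lines lie between 84.6 and 87.7%.

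A window under 25% at 4 hpf by pooled reads stood next to 489 of the 1651 higher windows (29.6%), to 53 of the 1074 lower windows (4.93%) and to 4.92% of the 1043417 remaining windows. Among windows that were themselves under 25% at 4 hpf, 344 of 796 higher windows (43.2%) had such a neighbour, against 64.3% of the remaining ones. At 24 hpf 163 higher windows (9.87%) had a neighbour under 25%, against 4.18% of the remaining windows, but among windows under 25% at 4 hpf the shares were 14.1% and 56.8%, and among those between 25 and 75% they were 5.96% and 19.2%. These shares describe the windows of these libraries and were not tested.

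Changed windows mostly stood alone. By pooled reads the 6187 higher windows formed 5637 runs of adjoining windows, of which 465 held more than 1 window and 3 held 7. The 3807 lower windows formed 3727 runs, of which 75 held more than 1 window, 3 held 3 and 1 held 4. Both kinds were found on all 25 chromosomes, with 0.442% (chromosome 2) to 0.801% (chromosome 22) of windows higher and 0.255% (chromosome 16) to 0.437% (chromosome 4) lower by pooled reads. Over the same CpGs chromosome 4 was near the low end for lower windows, at 0.0742%, and chromosome 24 was highest at 0.138%. On chromosome 4, 41 of 11419 windows beyond 30 Mb (0.359%) were higher over the same CpGs, against 27 of 23638 up to 30 Mb (0.114%). The lower windows were 6 (0.0525%) against 20 (0.0846%). The high-coverage run of 7 adjoining windows at chr4:61293001-61300000, described below, lies beyond 30 Mb. By pooled reads 0.743% beyond 30 Mb were higher, against 0.478% up to 30 Mb, and 0.598% were lower, against 0.336%, so that the direction for lower windows depended on the measure. In the outer 500 kb of the chromosomes, 0.785% of windows were higher and 0.642% lower by pooled reads, against 0.543% and 0.331% inside. Over the same CpGs these shares were 0.141% and 0.101% in the outer 500 kb, against 0.157% and 0.102% inside, so by this measure the outer windows did not exceed the inner ones.

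The regions below are given by position on the zebrafish assembly Zv9, without gene names, since a gene annotation of this assembly was not used here. They are the 6 runs in each direction whose best window had the Newcombe bound farthest from 0 (in windows with 40 reads in all 4 libraries and at most 3 times the median coverage), and the longest runs, and their values were among those that chose them. Levels are pooled reads of the whole run with Wilson intervals.

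The region with the firmest positive difference was also one of the 3 longest runs. At chr24:6429001-6436000, 7 kb with 191 CpGs, the level was 5.77% (5.04 to 6.6%) at 2, 3.74% (2.94 to 4.75%) at 4, 9.25% (7.93 to 10.8%) at 8 and 62.1% (60.4 to 63.8%) at 24 hpf. The first 3 stages thus lay close together and 24 hpf stood apart. The 7 windows differed between 24 and 4 hpf by 41.8 to 71.2 points, and 92 of the 105 CpGs with 5 reads in both libraries were higher by 25 points or more. The 1 kb before it remained at 1.33% at 24 hpf and 1.16% at 4 hpf, which set a sharp edge on this side. The 1 kb after it was partly methylated at every stage, with 42.5% at 2, 56.8% at 4, 24.4% at 8 and 61.9% at 24 hpf. Reads per CpG of the region were 0.613 times the median of the library at 4 hpf and 1.91 times at 24 hpf.

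Chromosome 9 held another region of this kind and a long one. At chr9:49087001-49088000 the level was 17.8% at 2, 13.9% (11 to 17.3%) at 4, 20.7% at 8 and 78.3% (73.9 to 82.2%) at 24 hpf. Of its 36 CpGs 16 had 5 reads in both libraries, and 15 of these were higher by 25 points or more. The run at chr9:48944001-48951000 had 30.9% at 2, 18.9% at 4, 31.2% at 8 and 59.5% at 24 hpf, with 117 of 161 CpGs higher by 25 points. Both stood at 8 hpf within 3 points of their 2 hpf level and had their largest step after 8 hpf. At chr14:36477001-36479000 the level was 17.5% at 2, 3.39% at 4, 5.07% at 8 and 63.9% at 24 hpf. Only 10 of its 56 CpGs had 5 reads in both libraries, and all 10 were higher by 25 points.

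The other higher regions began at 2 hpf from an intermediate level and had their lowest value at 4 hpf. At chr16:18057001-18058000 the level was 60.9% at 2, 25.5% (22.7 to 28.6%) at 4, 37.0% at 8 and 88.4% (85.3 to 90.8%) at 24 hpf, with 18 of 22 CpGs higher by 25 points. At chr22:20592001-20596000 it was 42.5%, 27.5%, 40.2% and 76.4% at 2, 4, 8 and 24 hpf. Only 26 of its 97 CpGs had 5 reads in both libraries, and 22 of these were higher by 25 points. At chr8:26437001-26438000 the level was 44.3%, 14.1%, 53.3% and 78.6% at these stages, and here the largest step was that from 4 to 8 hpf. Of its 31 CpGs 18 had such reads, and 15 of these were higher by 25 points. At 24 hpf these regions thus differed by less from 2 hpf than from 4 hpf.

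A long run on chromosome 4 stood apart by its coverage. At chr4:61293001-61300000, with 663 CpGs, the level was 2.66% at 2, 8.31% at 4, 38.2% at 8 and 69.4% at 24 hpf, and 607 of 610 CpGs were higher by 25 points. Its reads per CpG were 11.4 times the median of the library at 2, 13 times at 4, 5.69 times at 8 and 15.3 times at 24 hpf. Such coverage is seen where several copies of a sequence map to 1 place, and whether the same copies were read at each stage was not tested.

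The firmest negative difference lay in a single window in methylated sequence. At chr18:30252001-30253000 the level was 95.9% (94.5 to 96.9%) at 2, 97.9% (96.5 to 98.8%) at 4, 97.4% (94.7 to 98.7%) at 8 and 25.3% (20.5 to 30.7%) at 24 hpf, and 16 of 17 CpGs were lower by 25 points or more. The 1 kb on its left had 82.0% at 24 hpf and 96.8% at 4 hpf, and that on its right had 94.6% and 95.2%, and widened by 500 bp on each side the region differed by -33.7 points in place of -72.7. The window at chr1:46773001-46774000 followed the same course, with 93.6%, 95.6%, 98.5% and 29.3% at 2, 4, 8 and 24 hpf over 9 CpGs, of which 5 of the 6 with enough reads were lower by 25 points. Widened in the same way it differed by -29.0 in place of -66.3 points. Both were flat over the first 3 stages.

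Some other lower regions were below 80% at each of the stages before 24 hpf. At chr8:52511001-52513000 the level was 39.8% at 2, 66.2% (62.4 to 69.8%) at 4, 41.8% at 8 and 3.75% (2.16 to 6.44%) at 24 hpf, and all 23 CpGs with enough reads were lower by 25 points. The longest lower run, chr5:74221001-74225000, had a similar course, with 30.2%, 51.8%, 31.7% and 6.0% at 2, 4, 8 and 24 hpf and 19 of 25 CpGs lower by 25 points. In both the level at 4 hpf was above that of the neighbouring stages. At chr8:47496001-47499000 the level was 44.9% at 2, 53.4% at 4, 47.7% at 8 and 12.6% at 24 hpf, with 54 of 67 CpGs lower by 25 points. At chr12:12220001-12221000 it was 61.8%, 78.5%, 32.0% and 16.4% at 2, 4, 8 and 24 hpf, the only one of the lower regions named here whose largest step was that from 4 to 8 hpf, and widened it differed by -40.3 in place of -62.1 points.

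The remaining lower regions rested on fewer reads or smaller differences. At chr8:14027001-14028000 the level was 5.08% (1.74 to 13.9%) at 24 hpf, against 65.8% (58.0 to 72.8%) at 4 hpf, but only 3 of its 27 CpGs had 5 reads in both libraries, and the widened region differed by -34.3 in place of -60.7 points. At chr20:34787001-34788000 it was 18.2% (9.51 to 32.0%) at 24 hpf, against 90.6% (83.5 to 94.8%) at 4 hpf by pooled reads. It was 58.5% at 2 and 65.5% at 8 hpf, so that 4 hpf lay above both neighbouring stages. The 2 CpGs with 5 reads in both libraries differed by -18.3 points on average, and the widened region by -37.1 in place of -72.4 points. Most CpGs of this window were thus not read at this depth at both stages. The runs at chr17:32350001-32353000 and chr21:32931001-32934000 differed by -24.6 and -30.5 points by pooled reads and by -30.1 and -21.5 points over the same CpGs. The run on chromosome 17 had 54.7% at 2, 68.7% at 4, 58.8% at 8 and 44.1% at 24 hpf, again with 4 hpf above both neighbouring stages. That on chromosome 21 had 83.5%, 84.9%, 85.0% and 54.4% at these stages.

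The windows that hold the 6 viewpoints listed in the primer table of the study for chromosome conformation capture (4C), a list longer than the set described in its text, did not reach 25 points. These viewpoints carry the names of genes of transcription factors, and their positions were taken from that table as Zv9. The study describes the viewpoints in its text as enhancers with under 25% methylation, a set it gives at 4 hpf. A low level at 4 hpf was thus likely part of their choice. At lmx1ba, which encodes a LIM homeodomain factor, 18.1% of reads (14.5 to 22.4%) were methylated at 24 hpf, against 2.44% (1.4 to 4.21%) at 4 hpf, with 5.05% at 2 and 4.57% at 8 hpf. At sox5, which encodes a factor with an HMG box, it was 16.5% (11.9 to 22.5%) at 24 hpf, against 1.01% (0.433 to 2.35%) at 4 hpf. The sox5 window had 2.58% at 2 and 6.54% (3.2 to 12.9%) at 8 hpf. Over its 18 CpGs with 5 reads at both 4 and 24 hpf the mean difference was 19.9 points, and 7 of them were higher by 25 points or more. Over the 9 CpGs with 5 reads in every library the mean was 2.79% at 2, 2.26% at 4, 9.52% at 8 and 10.04% at 24 hpf. The largest step was thus that from 4 to 8 hpf over these CpGs, and that from 8 to 24 hpf by pooled reads. At meis2a, a cofactor of Hox proteins, 8.27% of reads (4.68 to 14.2%) were methylated at 24 hpf, against 0.573% (0.157 to 2.07%) at 4 hpf, with 3.97% at 2 and 3.82% at 8 hpf. The windows of nfixb, a nuclear factor I gene, meis1b, another Hox cofactor, and barx1, a homeobox gene of the pharyngeal arches, lay under 2.5% at both stages, with differences of 1.5, 1.33 and -0.40 points.

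The sox5 viewpoint is shown by its sequence because its primer itself crosses 3 CpGs. The genomic part of the primer, 5′ to 3′ with CpGs in capitals, was placed at chr4:16032897-16032922 (plus strand) as the only stretch within 5 kb of the viewpoint with CpGs at the same spacing.
sox5: cataaCGccccaCGtggcagCGgcat
At the first of these CpGs 3 of 11 reads were methylated at 24 hpf and 0 of 36 at 4 hpf. At the next it was 5 of 12 at 24 hpf and 0 of 32 at 4 hpf, and at the last 0 of 10 at 24 hpf and 0 of 31 at 4 hpf. The 2 hpf library had 0 methylated reads of 13, 14 and 15 at these CpGs, and the 8 hpf library 0 of 3 at each. Within the primer, methylated reads were thus seen at 24 hpf only, at 2 of the CpGs, and the 8 hpf depth cannot show a level of this size. The whole window of sox5 had methylated reads in every library.

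**Figure D5:**
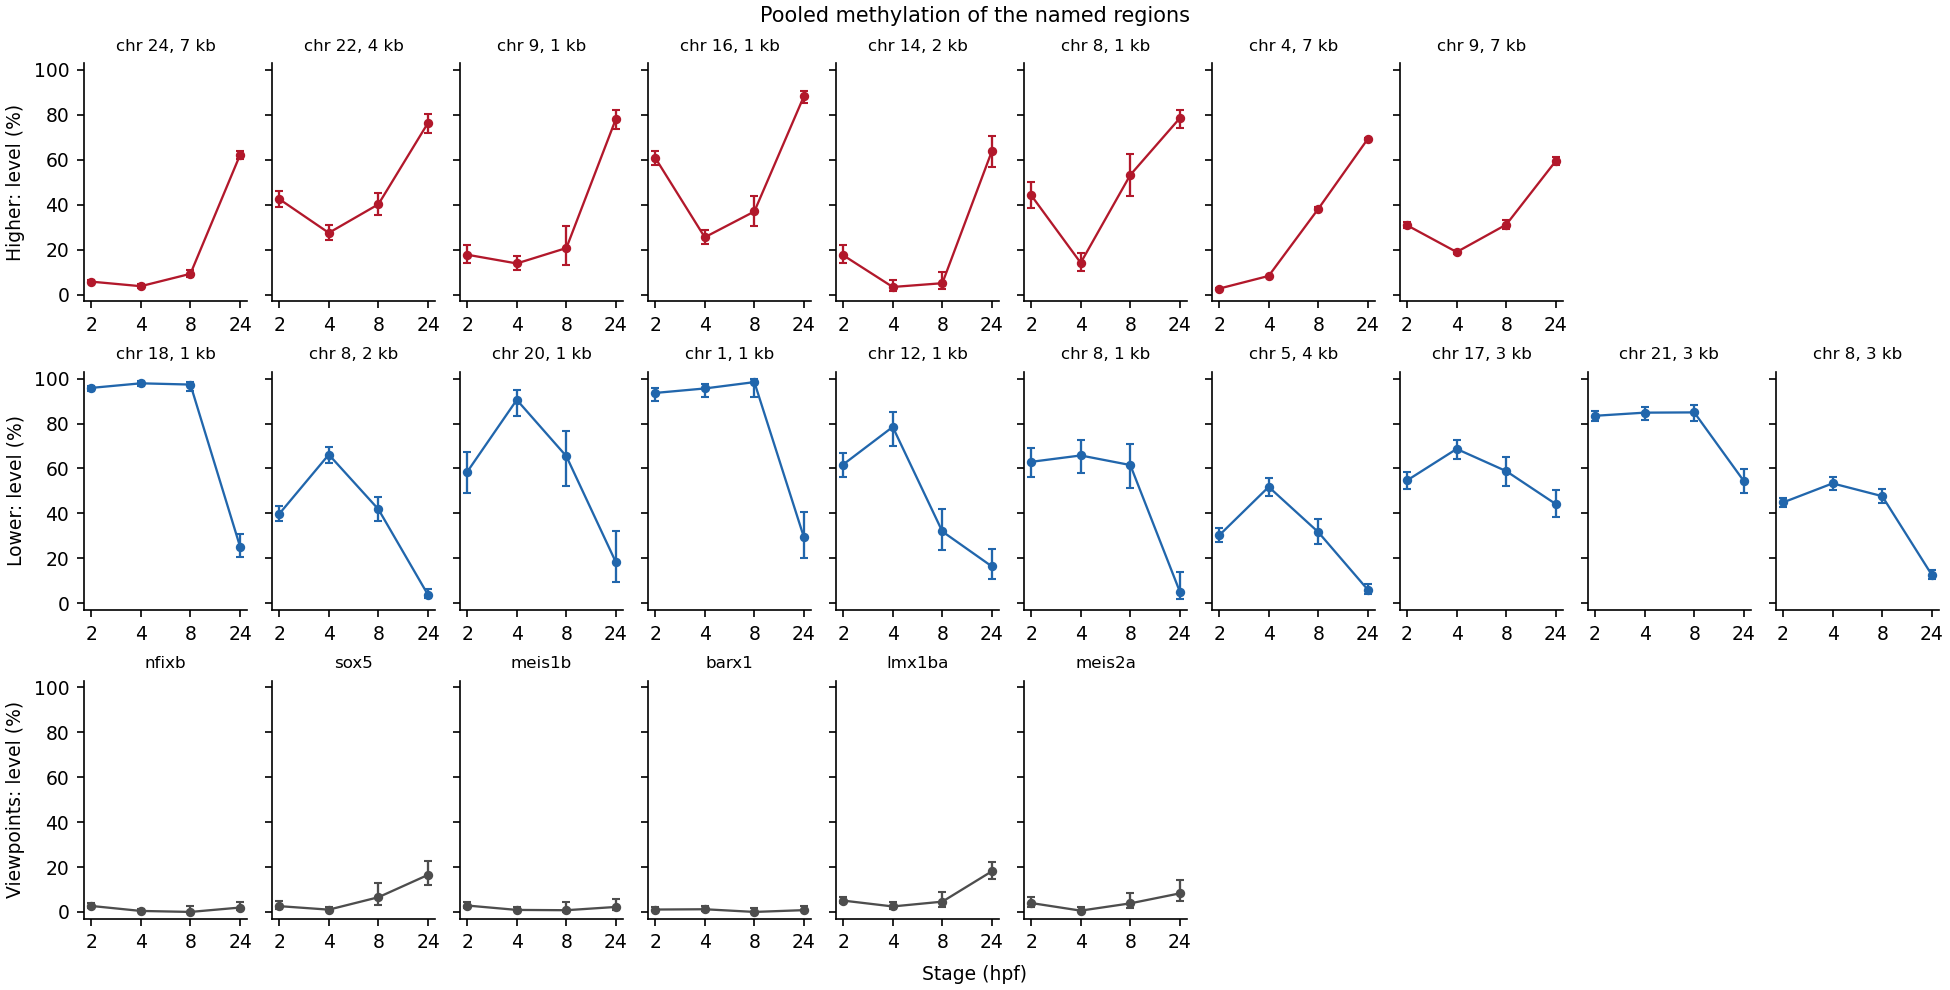
Pooled methylation level (y axis, %, with Wilson 95% intervals as bars) by stage (x axis, hpf) of the named regions higher at 24 than at 4 hpf (top), those lower (middle) and the 1 kb windows of the 6 viewpoints (bottom), each panel titled by chromosome and length or by gene. At 24 hpf the higher regions lie between 59.5 and 88.4%, the lower ones between 3.75 and 54.4%, and the viewpoints at 18.1% or less.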

How the data were processed

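The authors extracted DNA from timed whole embryos, prepared bisulfite libraries and deposited, per the labels on assembly Zv9 (danRer7), the coverage of each CpG as a count of reads and the methylated fraction. The deposited counts and fractions are not normalized. The aligner is not given in the sources used here, nor is the treatment of duplicate reads. Fraction times coverage gave whole reads, within 0.00124 reads at most, at all 24222160 nuclear CpGs, and these were taken as methylated reads. The reads summed over CpGs came to 693553384 at 2, 506486388 at 4, 194648540 at 8 and 299121963 at 24 hpf.

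Reads were pooled in windows of 1000 bp. Intervals of levels are Wilson, of differences Newcombe and of shares exact binomial intervals. The step of a window is the largest of the differences 2 to 4, 4 to 8 and 8 to 24 hpf. It is taken in the direction of the window's 24 minus 4 hpf difference by the measure used. Same-CpG values are means of fractions over CpGs with at least 5 reads in each library used. Named regions follow the rule given in the text, with ties kept. The members and lists were chosen with earlier results of these data known. Alternatives changed read and CpG minimums, window size and place, coverage, depth, centring, threshold and the use of a Fisher exact test with Benjamini-Hochberg adjustment. The counting was tested on simulated data. The software was numba 0.67.0, scipy 1.17.1, pandas 2.3.3, numpy 2.4.6, matplotlib 3.10.9 and Python 3.11.15. No genome or annotation of Zv9 was used, so genes, exons and promoters at the windows were not analysed here.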

Additional observations from a re-analysis of the deposited data

How the results depend on the processing

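The pooled counts changed by no more than 1.5 times with 20 reads, windows shifted by 500 bp, means of fractions or high-coverage windows left out. The same held with thinning to the depth of 8 hpf and with an adjusted Fisher p under 0.05 as a filter. The Fisher test took the reads as independent and covers counting error only, so it is not a test between stages. The count of higher windows also stayed within 1.5 times under the next 5 settings, under which the lower windows were 2435 with 80 reads, 2520 with 10 covered CpGs, 6222 in 500 bp windows, 1153 in 2 kb windows and 2472 with the median difference subtracted. At 40 points there were 1094 higher and 339 lower windows. The share of higher windows with the largest step after 8 hpf was 55.0% in 500 bp windows, 24.4% in 2 kb windows, 48.9% with means of fractions and 48.8% at 40 points. For lower windows it was 63.1% with shifted windows, 75.8% in 500 bp windows, 54.5% in 2 kb windows and 75% with means of fractions. The cause was not tested. Other alternatives were chosen after seeing the data. With the same CpGs in place of pooled reads there were 2020 higher and 1738 lower windows and shares of 69.9% and 88.1%, and with both measures together 1651 and 1074 windows and shares of 70.3% and 88.0%. No named region changed direction with means of fractions or when widened by 500 bp, except the barx1 viewpoint window, whose difference stayed within 1 point, but widening brought the single-window lower regions to between -29.0 and -40.3 points. The 8 hpf depth limits the steps. No paired analysis was possible because each stage has 1 library.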
